A study of Mus musculus with 59 samples.

Results

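Megalin (Lrp2) and cubilin (Cubn) were followed in the mouse uterus with the proteins they work with, amnionless (Amn) and Disabled-2 (Dab2), and with Lrp1, a relative of megalin. The 5 genes were taken by symbol, all were found, and they are 5 of the 21706 genes measured. RNA had been sequenced from 59 uterine samples of 29 mated females, which fall into 12 groups by tissue, day and genotype. The series asks how oestrogen receptor alpha of the uterine epithelium shapes the transcripts of the luminal epithelium and of the uterus before implantation.

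Esr1, the gene of oestrogen receptor alpha, was floxed on a single chromosome and null on its partner in all females. The knockout, epiERα-/-, also carried Wnt7aCre/+, a Cre under the promoter of Wnt7a, which is active in the uterine epithelium and not in stroma or muscle. The control, Esr1f/-, had no Cre, so that it too was left with a single functional copy of Esr1 in every cell and is not a wild type. Females were virgin and about 2 to 6 months old when they were paired with wild type males. D0.5 is the day on which a plug was found, when oestrogen acts on the uterus, and D3.5 is shortly before implantation begins, when progesterone dominates. LE is luminal epithelium scraped out after the uterus had been held in dispase, DU is a piece of that digested uterus, and U is a piece of the undigested uterus. LE comprised 6 knockout and 4 control libraries at D3.5 and 7 knockout and 9 control libraries at D0.5. DU comprised 3 knockout and 3 control libraries at D3.5 and 3 knockout and 4 control libraries at D0.5. U comprised 5 knockout and 5 control libraries at D3.5 and 4 knockout and 6 control libraries at D0.5. No mouse gave more than 1 library to a group, and pieces of the same mouse share its number.

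Megalin is a giant member of the LDL receptor family that sits on the apical face of absorptive epithelia and carries bound proteins into clathrin-coated pits. It is best known from the proximal tubule of the kidney and from the yolk sac, where it recovers carriers of vitamins, hormones, lipoproteins and proteases. Cubilin lies on the outer face of the membrane without a segment that spans it. It needs amnionless to reach the surface and is taken in with amnionless and megalin. Disabled-2 is the adaptor that links the tails of these receptors to clathrin. Lrp1 is built like megalin but is found mainly on mesenchymal cells, macrophages and hepatocytes, where it clears protease and inhibitor complexes, alpha-2-macroglobulin and apolipoprotein E particles. The luminal epithelium of the uterus takes up material from the lumen by endocytosis before implantation.

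The promoters of Lrp2 and Cubn are shown because these genes changed most between the days and because the study removes a nuclear receptor. They were read from RefSeq on GRCm38.p6, 250 bases before to 50 bases after the start of the gene. Lrp2 lies at chr2:69424335-69586029 and Cubn at chr2:13276338-13491876, both on the minus strand, with promoter windows at chr2:69585980-69586279 for Lrp2 and chr2:13491827-13492126 for Cubn. Capitals mark the letters GGTCA or TGACC, an arm of the oestrogen response element, and GGGCGG or CCGCCC, a GC box, on either strand.
Lrp2: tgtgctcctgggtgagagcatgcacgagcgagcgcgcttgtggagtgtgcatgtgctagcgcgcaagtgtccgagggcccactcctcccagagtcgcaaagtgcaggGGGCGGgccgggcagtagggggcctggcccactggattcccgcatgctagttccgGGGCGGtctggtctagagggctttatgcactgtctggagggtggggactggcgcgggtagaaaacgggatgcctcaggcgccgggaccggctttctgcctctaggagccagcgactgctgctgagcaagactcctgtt
Cubn: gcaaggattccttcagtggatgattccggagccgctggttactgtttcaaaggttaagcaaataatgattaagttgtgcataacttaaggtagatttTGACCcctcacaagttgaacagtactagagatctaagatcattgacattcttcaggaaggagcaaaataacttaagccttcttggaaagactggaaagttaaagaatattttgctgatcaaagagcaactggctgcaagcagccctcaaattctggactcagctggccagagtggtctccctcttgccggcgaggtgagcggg
The Lrp2 window holds 2 GC boxes and no GGTCA arm, and the Cubn window holds 1 such arm and no GC box. GGTCA was found in 40.5% and GGGCGG in 35.7% of all 32851 windows of this length, so neither match sets these promoters apart. The full oestrogen response element, both arms facing each other across 3 free bases, was present in 0.0700% of windows and in no window of the 5 genes, and the palindrome shared by progesterone and glucocorticoid receptors was in none of them either. GC content was 65.0% for Lrp2 and 44.3% for Cubn, against a median of 52.7% over all windows. The Lrp2 window has 20 CpG dinucleotides and the Cubn window 5, against a median of 7. A match here describes letters only, and no match says nothing of binding elsewhere.

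Libraries held 13468447 to 80312395 estimated counts in LE, 14053781 to 46214387 in DU and 11305113 to 108002365 in U. Levels within a gene are given as CPM, the count scaled for library size and composition within a tissue, and levels between genes as TPM, which also corrects for transcript length. Esr1, the targeted gene, lay at 52.1 to 73.2 CPM in knockout LE and 104 to 162 CPM in control LE at D3.5. At D0.5 it lay at 34.8 to 62.9 CPM in knockout LE and 110.4 to 273 CPM in control LE, without overlap on either day. In U at D3.5 the genotypes overlapped, and the library labelled knockout mouse 33 had the highest Esr1 of both genotypes at 212 CPM. U also holds stroma and muscle, where the Cre is not active, so Esr1 in U cannot settle the label of a single library. LE libraries carried the 10 markers of general epithelium at a summed 4511 to 8263 CPM in the knockout and 6031 to 7626 CPM in the control at D3.5, and at 4518 to 7899.7 CPM in the knockout and 9111 to 16487 CPM in the control at D0.5. Stromal RNA was still present in LE, where the 11 stromal markers summed to 579 to 6342 CPM over all 26 libraries, against 11516 to 25508 CPM in U. In bulk RNA, fewer cells of a type and less RNA per cell cannot be told apart. The knockout LE libraries of mice 35, 36 and 37 at D3.5 were taken to stand apart from the other 3, a split that their sample titles do not give. The results they bear on are therefore also given without them. That leaves only the other 3 knockout libraries, so a call that ended without these mice may reflect fewer libraries alone, which was not tested.

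Lrp2 covered the widest range of the 5 genes, and every library of D3.5 exceeded every library of D0.5. In LE at D3.5 the knockout had 54.7 at the lowest, 205 at the median and 347 at the highest TPM, and the control, the highest of the 12 groups, had 204, 220.0, 478 and 553 TPM, with overlap. With a mean of 204 ± 98.4 TPM (SD, n = 6) Lrp2 ranked 433 of 21706 genes in knockout LE at D3.5, and with 364 ± 178 TPM (SD, n = 4) it ranked 230 in control LE. Whole tissue at D3.5 had lower levels, with 27.0 ± 4.95 TPM in knockout DU and 45.3 ± 10.6 in control DU, and with 27.8 ± 17.6 in knockout U and 30.3 ± 14.5 in control U. At D0.5 the means were 5.64 ± 1.64 TPM in knockout LE and 1.80 ± 0.953 in control LE, 4.29 ± 0.764 in knockout DU and 1.58 ± 0.864 in control DU, and 3.23 ± 1.54 in knockout U and 1.30 ± 0.729 in control U. From the highest, the order was control LE, knockout LE, control DU, control U, knockout U and knockout DU at D3.5, then knockout LE, knockout DU, knockout U, control LE, control DU and control U at D0.5. Within each day, each group overlapped its neighbours in this order.

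**Figure D1:**
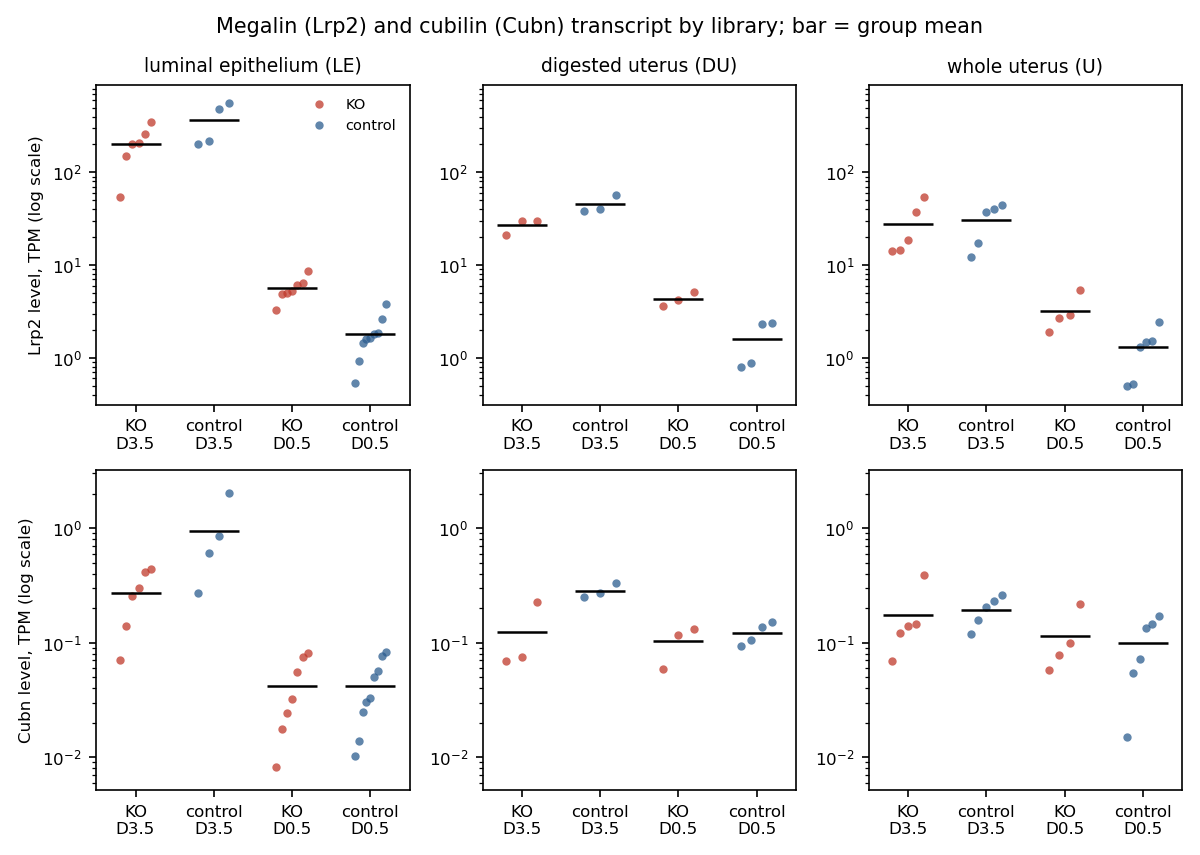
Lrp2 (top) and Cubn (bottom) level in TPM on a log scale for each library, by tissue, day and genotype, with knockout (KO) in red, control in blue and the group mean as a bar. Lrp2 at D3.5 lies above every D0.5 library in all 3 tissues, and Cubn in control LE lies at 0.272 to 2.02 TPM at D3.5 and at 0.0102 to 0.0826 TPM at D0.5.

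Between the days, Lrp2 rose in both genotypes and in all 3 tissues. In knockout LE it had 552 CPM at the lowest, 2201 at the median and 3307 at the highest of 6 libraries at D3.5, against 37.7 CPM at the lowest, 55.6 at the median and 108 at the highest of 7 libraries at D0.5, without overlap. Its log2 fold change there was 5.09 ± 0.51 (SE; edgeR adjusted p = 1.25e-08), or 34.0-fold. In control LE it had 2476, 3819.6, 5018 and 8080.2 CPM at D3.5, against 4.25 CPM at the lowest, 15.0 at the median and 44.4 at the highest of 9 libraries at D0.5. The lowest library of D3.5 again exceeded the highest of D0.5 by a wide margin. The log2 fold change was 8.03 ± 0.53 (SE; edgeR adjusted p = 5.02e-12), or 261-fold. Genes that changed between the days were common, with 41.6% of 15601 genes past an adjusted p of 0.05 in knockout LE and 44% in control LE, and 21.4% in knockout LE and 21.2% in control LE were higher at D3.5.

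The same rise was seen in tissue that had not been scraped. In knockout U Lrp2 had 199, 199, 268, 432 and 537 CPM at D3.5, against 18.9, 22.4, 29.7 and 58.5 CPM at D0.5, with a log2 fold change of 3.34 ± 0.47 (SE; edgeR adjusted p = 2.07e-05). In control U it had 178, 215, 402, 489 and 517 CPM at D3.5, against 3.90 CPM at the lowest, 7.24 at the median and 13.1 at the highest at D0.5, and the log2 fold change was 5.56 ± 0.44 (SE; edgeR adjusted p = 1.09e-08). No library of D0.5 reached those of D3.5 in either genotype. Lrp2 changed by 2.74 ± 0.34 on the log2 scale in knockout DU (SE; edgeR adjusted p = 6.24e-05) and by 5.94 ± 0.35 in control DU (SE; edgeR adjusted p = 1.19e-07). The share of all tested genes called between the days was 25.5% in knockout U, 34.2% in control U, 30.2% in knockout DU and 34.4% in control DU. Lrp2 was the only one of the 4 members tested there (Lrp2, Cubn, Dab2 and Lrp1) that passed in those 4 comparisons.

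Marker sums of other cells also differed between the days. The median marker sum at D3.5 over that at D0.5 was 3.78 in knockout LE and 11.5 in control LE for erythroid cells, 1.75 in knockout and 7.31 in control for B and plasma cells, and 0.898 in knockout and 5.98 in control for endothelium. All 5 erythroid markers tested, 5 of 6 B and plasma cell markers and 5 of 8 endothelial markers were called higher at D3.5 in control LE. For neutrophils the ratio was 0.00285 in knockout and 0.0669 in control LE. Of 7 neutrophil markers tested, 7 were called lower at D3.5 in knockout LE and 4 in control LE. The ratio was 0.396 in knockout and 0.231 in control LE for gland, 0.587 in knockout and 0.290 in control LE for stratified epithelium and 0.862 in knockout and 0.644 in control LE for general epithelium. Single markers did not all follow these sums. Of 6 gland markers tested, 3 were called higher and 1 lower in knockout LE (median log2 fold change 0.94). In control LE 2 were called higher and 1 lower (median 0.45). Of 9 stratified markers, 1 was called higher and 3 lower in knockout LE (median 0.90), and 0 higher and 2 lower in control LE (median −1.46). The ratio was 0.973 in knockout and 1.44 in control LE for stroma and 1.79 in knockout and 2.44 in control LE for mesothelium. In U the general epithelial markers summed to 628 to 1473 CPM at D3.5 and 3066 to 9552 CPM at D0.5 in controls. Embryos can lie in the lumen at D3.5, and the outer cells of early embryos are known to make megalin and cubilin. The 12 blastocyst markers summed to 575 to 1258 CPM in knockout LE and 823 to 1609 CPM in control LE at D3.5, and to 71.1 to 129 CPM in knockout LE and 70.2 to 222 CPM in control LE at D0.5. Nearly all of that was Sox17, which the luminal epithelium can itself express, at 569 to 1249.9 CPM in knockout and 813 to 1567 CPM in control LE at D3.5. Without Sox17, a split made after its level was seen, the other 11 markers summed to 5.52 to 10.8 CPM in knockout LE and 9.64 to 42.3 CPM in control LE at D3.5, and to 2.14 to 4.41 CPM in knockout LE and 5.28 to 15.5 CPM in control LE at D0.5. Of these, Cdx2 and Fgf4 were at 0 in every LE library of knockouts at D3.5. All 12 markers were detected in some control LE library at D3.5, and Cdx2, Dppa5a and Fgf4 were at 0 in every control LE library at D0.5. By median, the sum of these 11 markers was 7.84 CPM at D3.5 and 3.35 CPM at D0.5 in knockout LE. In control LE it was 11.7 CPM at D3.5 and 7.97 CPM at D0.5. The highest sum, 42.3 CPM in control mouse 11, went with 3819.6 CPM of Lrp2, where the 4 controls held 2476 to 8080.2 CPM. A single library cannot decide the part of embryo RNA. The part of embryo RNA and of the other cells in the rise was not tested.

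At D0.5 Lrp2 was higher in knockouts than in controls in all 3 tissues. In LE the 7 knockout libraries held 37.7 CPM at the lowest, 55.6 at the median and 108 at the highest, against 4.25 CPM at the lowest, 15.0 at the median and 44.4 at the highest in the 9 controls. Every control but mouse 2 lay below the lowest knockout. The log2 fold change was 1.72 ± 0.41 (SE; edgeR adjusted p = 0.00258), where 23.6% of genes were called and 10.9% were higher in the knockout. In U, knockout libraries had 18.9, 22.4, 29.7 and 58.5 CPM, against 3.90 CPM at the lowest, 7.24 at the median and 13.1 at the highest in controls, without overlap. That log2 fold change was 2.08 ± 0.40 (SE; edgeR adjusted p = 0.00367), where 4.98% of genes were called and 2.02% were higher. The call in U rests on the counts: on the log2(TPM + 1) scale the difference was 0.88 with an adjusted p of 0.303 by limma, and Lrp2 TPM of 1.88, 2.71, 2.90 and 5.45 in knockouts overlapped 0.499 to 2.46 in controls. In DU, knockouts had 35.9, 46.2 and 51.5 CPM, against 3.73, 5.99, 10.3 and 11.6 CPM in controls. This gave a log2 fold change of 2.48 ± 0.31 (SE; edgeR adjusted p = 0.000661), where 8.06% of genes were called and 3.89% were higher.

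At D0.5 knockout LE also held more neutrophil RNA, with 8 neutrophil markers at a summed 935 to 3474 CPM in the knockout and 3.56 to 399 CPM in the control. General epithelial markers were lower in the knockout and stromal markers overlapped, at 941 to 4703 CPM in the knockout and 579 to 6342 CPM in the control. The median sum in knockout over control LE was 3.41 for stratified epithelium, with 1 of 9 markers called higher and 2 lower. It was 2.43 for lymphatic endothelium (1 of 5 called higher), 2.39 for endothelium (0 of 8) and 1.55 for gland (3 of 6 tested called higher). For macrophages it was 0.569, with 5 of 8 markers tested called higher and 1 lower. The part of all these cells in the higher Lrp2 was not tested. Mouse 23 was highest in Lrp2 among knockouts and mouse 2 among controls, and these were also the libraries with the highest stromal sums of their groups. In control LE the lowest Lrp2, in mice 7 and 8, likewise went with the lowest stromal sums. Knockout LE differed at its low end: mouse 26 had the lowest stromal sum, 941 CPM, and the median Lrp2 of its group in TPM, 5.26. The part of stromal RNA in Lrp2 was not tested. Leaving out any single library kept the call of Lrp2 in LE, with log2 fold changes of 1.52 to 1.99 over 16 such fits.

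By D3.5 the higher Lrp2 of the knockout was no longer seen. Knockout LE had 552 CPM at the lowest, 2201 at the median and 3307 at the highest in 6 libraries, against 2476, 3819.6, 5018 and 8080.2 CPM in controls. The mean was 2077 ± 984 CPM in knockouts and 4848 ± 2392 CPM in controls (SD, n = 6 and 4), and the ranges overlapped. The log2 fold change of −1.22 ± 0.51 (SE) did not pass the test (edgeR adjusted p = 0.119), where 13.5% of genes did. Mouse 36 held the lowest value, and without mice 35, 36 and 37 the log2 fold change was −0.75 (adjusted p = 0.521). In DU the knockouts had 238, 325 and 333 CPM, against 408, 434 and 634 CPM in controls. The log2 fold change of −0.72 ± 0.32 (SE) missed the threshold (edgeR adjusted p = 0.582), in a comparison where only 0.574% of genes were called. These few libraries did not overlap, but the share of all genes that separate likewise is not given here, so Lrp2 is not singled out. In U, where 0.0185% of genes were called, Lrp2 had 199, 199, 268, 432 and 537 CPM in knockouts and 178, 215, 402, 489 and 517 CPM in controls, with a log2 fold change of −0.14 ± 0.39 (SE; edgeR adjusted p = 1.00). The highest of these knockouts was mouse 33, which also had the highest Esr1 of the U libraries at D3.5. Without it the log2 fold change was −0.40 (adjusted p = 0.955).

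The change of the knockout effect from D0.5 to D3.5 was tested as an interaction. For Lrp2 in LE, the knockout effect at D3.5 minus that at D0.5 was −2.94 ± 0.65 on the log2 scale (SE; edgeR adjusted p = 0.00236), where 16.5% of genes were called. In DU it was −3.20 ± 0.45 (SE; edgeR adjusted p = 0.00575), where 1.88% were called; the call ended on the log2(TPM + 0.1) scale (−2.27, limma adjusted p = 0.0647) and on log2(TPM + 1) without a filter (adjusted p = 0.0533). In U it was −2.22 ± 0.56 (SE) with an edgeR adjusted p of 0.0521, just short of the threshold, where 1.43% of genes were called. Of 20 fits that each left out a library, the U value passed in those without control mouse 1, 13 or 14 or knockout mouse 21 or 33. Their edgeR adjusted p were 0.0254, 0.0406, 0.0452, 0.0298 and 0.0240. Put as folds between the days, Lrp2 was 34.0-fold higher at D3.5 in knockout LE and 261-fold higher in control LE, 6.70-fold in knockout DU and 61.5-fold in control DU. These folds come from counts. In TPM the fold in control DU was smaller, with means of 45.3 at D3.5 and 1.58 at D0.5. The means in knockout DU were 27.0 TPM at D3.5 and 4.29 TPM at D0.5.

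**Figure D2:**
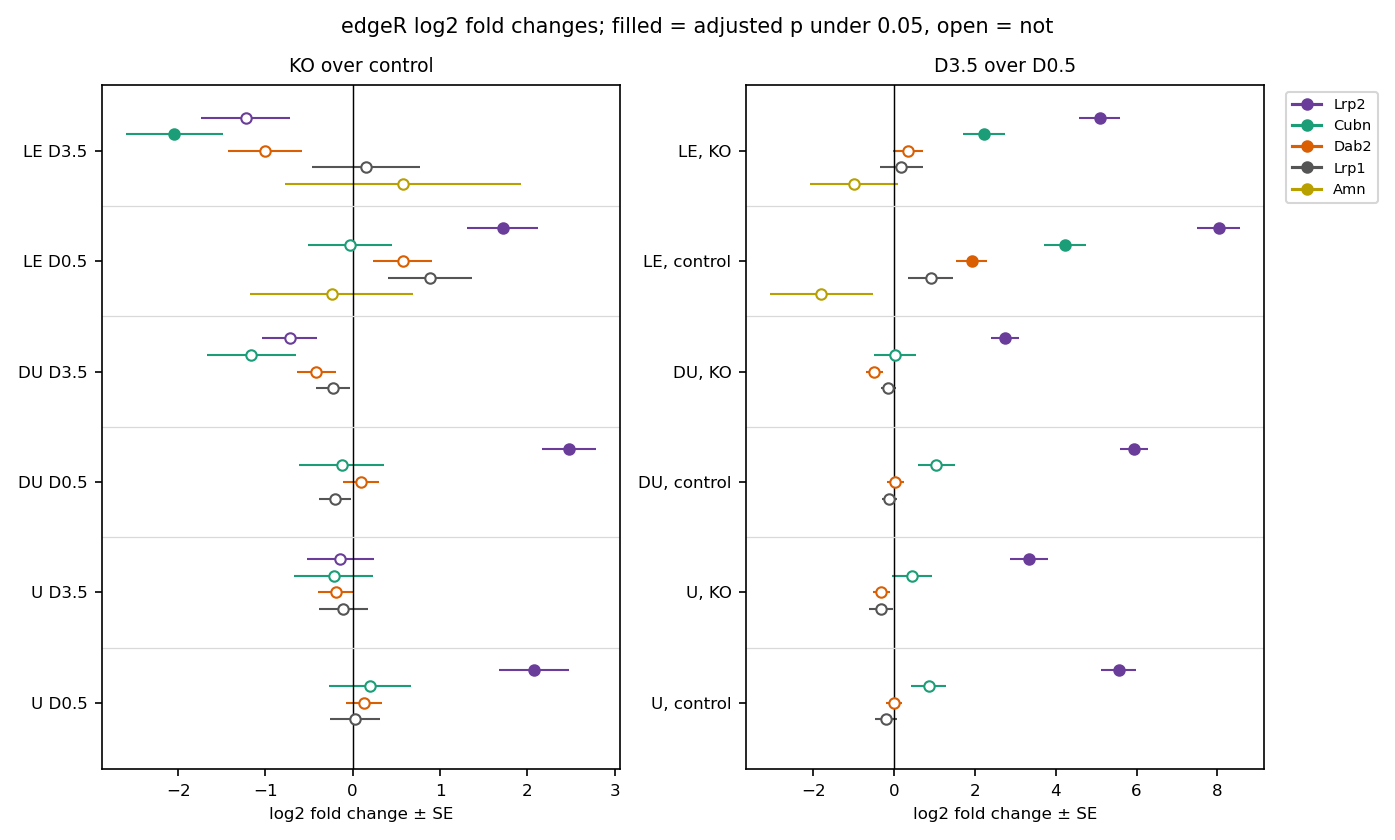
Log2 fold changes with SE from edgeR for the 5 genes, knockout over control on the left and D3.5 over D0.5 on the right, by tissue, with filled points at an adjusted p under 0.05 and open points otherwise. Lrp2 is filled in all 3 tissues at D0.5 on the left (1.72, 2.48 and 2.08 in LE, DU and U) and in every row on the right; Amn was tested within a tissue only in LE.

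Cubn, the partner receptor of megalin, followed the same course between the days in LE at a far lower level. In knockout LE it had 0.484 CPM at the lowest, 2.16 at the median and 3.43 at the highest at D3.5, against 0.0954 CPM at the lowest, 0.315 at the median and 0.752 at the highest at D0.5, and the ranges overlapped. There the log2 fold change was 2.23 ± 0.51 (SE; edgeR adjusted p = 0.000950), or 4.68-fold. In control LE it had 3.57, 6.68, 7.61 and 15.7 CPM at D3.5, against 0.117 CPM at the lowest, 0.380 at the median and 0.847 at the highest at D0.5, without overlap. Its log2 fold change was 4.24 ± 0.52 (SE; edgeR adjusted p = 2e-07), or 18.8-fold. These levels rest on few reads, 11 to 81 estimated counts per knockout and 82 to 341 per control library at D3.5, and 2 to 29 per library at D0.5. On the TPM scale Cubn averaged 0.938 ± 0.759 TPM in control LE at D3.5 (SD, n = 4) and 0.0419 to 0.285 TPM in the other 11 groups, and each group overlapped its neighbours in this order. In U and DU the 4 comparisons of the days did not pass for Cubn. In control DU it had 2.12, 2.16 and 2.75 CPM at D3.5, against 0.850, 0.971, 1.23 and 1.48 CPM at D0.5. The log2 fold change there was 1.05 ± 0.46 (SE), with an edgeR adjusted p of 0.10.

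Cubn was the only member of the 5 that passed between the genotypes in LE at D3.5, where it fell in the knockout. The 6 knockouts averaged 2.03 ± 1.11 CPM and the 4 controls 8.39 ± 5.17 CPM (SD), with the highest knockout at 3.43 CPM and the lowest control at 3.57 CPM. Cubn had a log2 fold change of −2.05 ± 0.56 (SE; edgeR adjusted p = 0.0134), in a comparison where 5.7% of genes were lower in the knockout. The separation is narrow and was not seen in TPM, where knockouts at 0.0706 to 0.435 overlapped controls at 0.272 to 2.02. Control mouse 15 carried the highest value, and without it the log2 fold change was −1.55 (adjusted p = 0.0921). Without knockout mice 35, 36 and 37 it was −1.53 (adjusted p = 0.170). Marker sums also differed between these libraries: the median in knockout LE over that in control LE was 6.91 for stratified epithelium (2 of 9 markers called higher), 2.65 for gland (3 of 6 tested called higher), 0.426 for erythroid cells, 0.382 for B and plasma cells and 0.359 for endothelium, with no marker of these last 3 sets called. Their part in the lower Cubn was not tested. At D0.5 Cubn had 0.0954 CPM at the lowest, 0.315 at the median and 0.752 at the highest in knockout LE and 0.117 CPM at the lowest, 0.380 at the median and 0.847 at the highest in control LE, with a log2 fold change of −0.03 ± 0.48 (SE; edgeR adjusted p = 0.973). The knockout effect of D3.5 minus that of D0.5 was −2.01 ± 0.73 (SE) and missed the threshold (edgeR adjusted p = 0.0591). Of 26 fits that each left out a library, this difference passed in those without control mouse 2, 5 or 11 or knockout mouse 26 or 31. These fits gave log2 values of −2.26 to −2.14 and edgeR adjusted p of 0.0363 to 0.0459. In DU at D3.5 Cubn had 0.618, 0.623 and 1.91 CPM in knockouts and 2.12, 2.16 and 2.75 CPM in controls. The log2 fold change of −1.16 ± 0.51 (SE) did not pass (edgeR adjusted p = 0.579). In U it was −0.22 ± 0.45 (SE; edgeR adjusted p = 1.00).

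Amn, which brings cubilin to the surface, was close to the limit of detection everywhere. It had 0 to 44 estimated counts per library, and none in 16 of the 59 libraries, which allows up to 0.0764 to 0.311 CPM in these libraries at 3 counts each, by counting error only. Group means lay between 0.0445 and 0.269 TPM. In LE at D3.5, where Lrp2 and Cubn were highest, Amn was at 0 in 4 of 6 knockout libraries and in 3 of 4 control libraries. At D0.5 it was at 0 in 1 of 7 knockout and 1 of 9 control libraries of LE, with highest values of 0.663 and 1.15 CPM. No comparison of Amn passed in LE, with a log2 fold change of −1.80 ± 1.28 (SE; edgeR adjusted p = 0.268) between the days in controls. That value hangs on control mouse 11, the single control of D3.5 with Amn reads; without it the log2 fold change was −6.04 (adjusted p = 0.0334), which depends on the prior count because the remaining controls had no reads. In U and DU Amn fell below the count filter and was not tested within those tissues. No rise of Amn was seen alongside Lrp2 and Cubn: it averaged 0.148 ± 0.241 CPM at D3.5 and 0.290 ± 0.217 CPM at D0.5 in knockout LE, and 0.0872 ± 0.174 CPM at D3.5 and 0.346 ± 0.366 CPM at D0.5 in control LE (SD). The 3 control libraries of D3.5 with none allow up to 0.138 to 0.228 CPM each.

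Dab2, the clathrin adaptor of these receptors, did not pass between the days in knockout LE and rose in control LE. Knockout LE had 22.4 CPM at the lowest, 66.2 at the median and 129.8 at the highest at D3.5 and 30.0 CPM at the lowest, 59.9 at the median and 83.2 at the highest at D0.5, with a log2 fold change of 0.35 ± 0.37 (SE; edgeR adjusted p = 0.485). Control LE had 108, 134, 169.6 and 174 CPM at D3.5, against 15.0 CPM at the lowest, 26.8 at the median and 88.4 at the highest at D0.5, without overlap. Dab2 had a log2 fold change of 1.92 ± 0.38 there (SE; edgeR adjusted p = 0.000187). Between genotypes neither day passed, at −1.0 ± 0.43 (edgeR adjusted p = 0.129) on D3.5 and 0.57 ± 0.34 (edgeR adjusted p = 0.245) on D0.5, both log2 with SE. The difference between those effects did pass, at −1.58 ± 0.54 (SE; edgeR adjusted p = 0.0473), but close to the threshold: of 26 fits that each left out a library, 18 ended the call, with adjusted p up to 0.0894 and log2 values of −1.83 to −1.39. The 18 were knockout mice 22, 23, 24, 25, 27, 34, 35, 36 and 37 and control mice 1, 3, 6, 7, 8, 9, 14, 15 and 16. Between the days Dab2 had log2 fold changes of −0.31 in knockout U, 0.00 in control U, −0.48 in knockout DU and 0.03 in control DU, and no comparison of Dab2 within U or DU passed. In DU at D3.5 Dab2 had 102, 122 and 131 CPM in knockouts and 145, 161 and 167 CPM in controls. The log2 fold change of −0.42 ± 0.22 (SE) did not pass (edgeR adjusted p = 0.697).

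Lrp1, the family member of mesenchyme, was low in LE and high in tissue with stroma. Its means were 12.1 ± 4.06, 8.66 ± 5.49, 8.18 ± 5.40 and 4.42 ± 5.00 TPM in LE (knockout D3.5, control D3.5, knockout D0.5 and control D0.5; SD), 69.6 to 75.8 TPM in U and 96.4 to 108 TPM in DU. Between genotypes it had 23.0 CPM at the lowest, 92.3 at the median and 194 at the highest in knockout LE at D0.5 and 11.7 CPM at the lowest, 40.5 at the median and 178 at the highest in control LE. The log2 fold change of 0.89 ± 0.48 (SE) did not pass (edgeR adjusted p = 0.200), and without control mouse 2 it was 1.34 and did (adjusted p = 0.0270). Without the same mouse the change between the days in control LE was 1.36 (adjusted p = 0.0291), against 0.91 ± 0.56 (SE; edgeR adjusted p = 0.194) with it. Mouse 2 had the highest stromal marker sum of all LE libraries, 6342 CPM, and the highest Lrp1 of its group, 178 CPM. At D3.5 knockout LE had 46.0 CPM at the lowest, 128 at the median and 147 at the highest and control LE 31.5, 91.6, 126 and 175 CPM, with a log2 fold change of 0.15 ± 0.62 (SE; edgeR adjusted p = 0.915). In U and DU Lrp1 did not pass between genotypes or between days in any of the 8 comparisons, with log2 fold changes of −0.33 to 0.03.

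**Figure D3:**
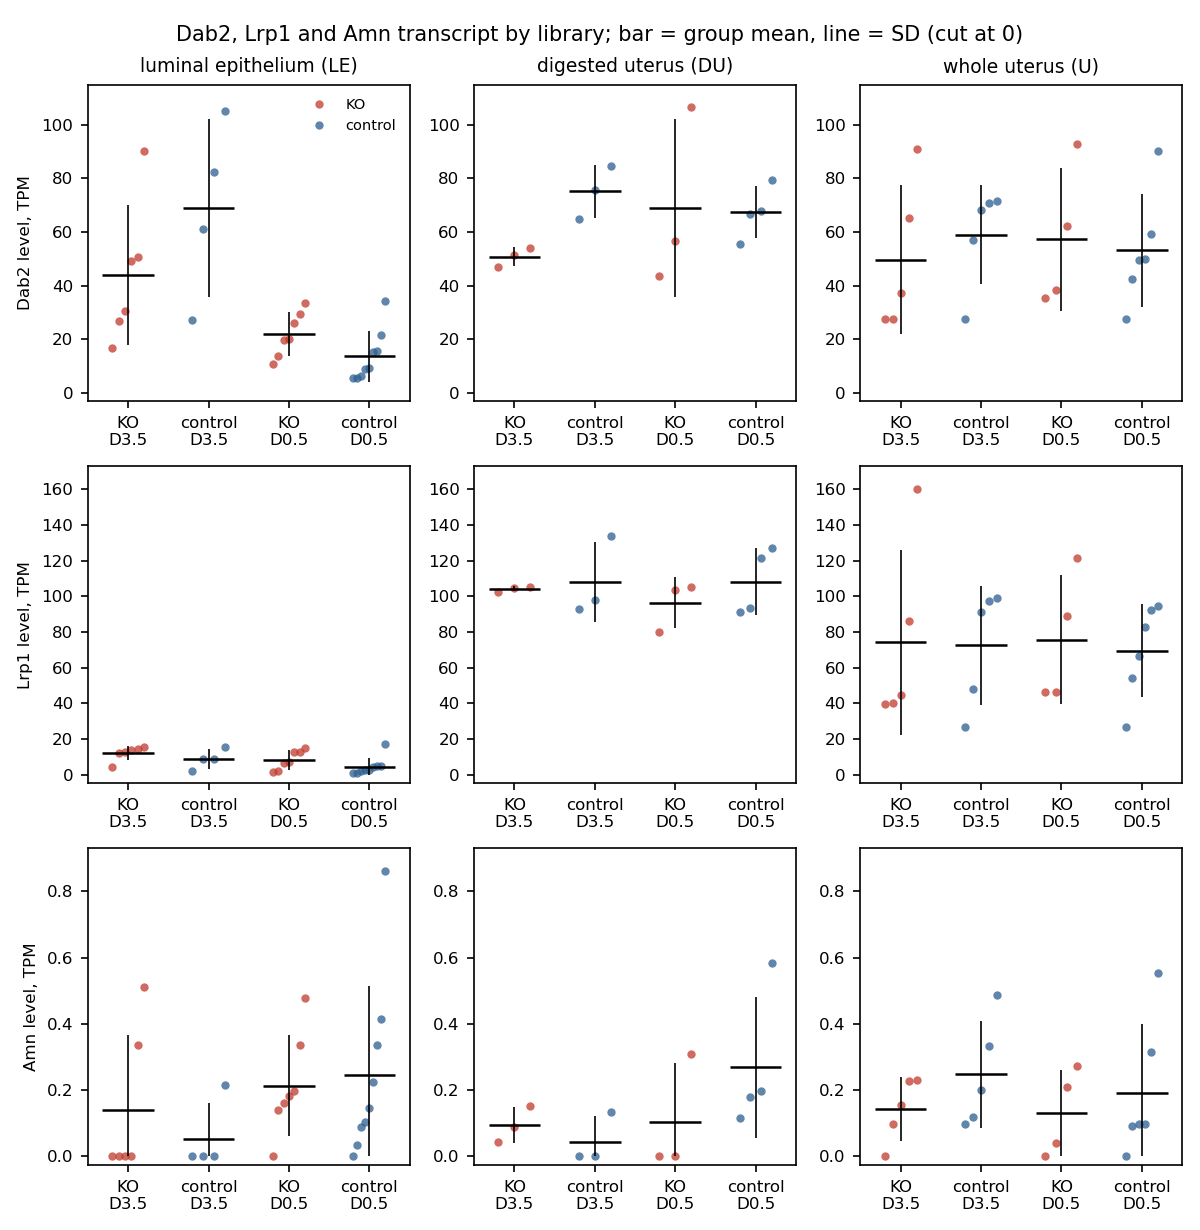
Dab2 (top), Lrp1 (middle) and Amn (bottom) level in TPM for each library on linear axes, by tissue, day and genotype, with knockout (KO) in red, control in blue, the group mean as a bar and the SD as a line cut at 0. Lrp1 reaches at most 17.1 TPM in an LE library, while the Dab2 mean in control LE lies at 69.0 TPM at D3.5 and 13.5 TPM at D0.5, and Amn reaches at most 0.861 TPM.

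The levels in LE were set beside the stromal markers left in the scrape. As a share of the stromal marker sum, Lrp1 came to 4.53 to 15.0% in knockout and 1.54 to 5.33% in control LE at D3.5, and to 1.84 to 7.93% in knockout and 1.88 to 3.74% in control LE at D0.5. In U the same share was 2.09 to 10.5%. These ranges overlap, and the part of stromal RNA in the Lrp1 of LE was not tested. Dab2 came to 2.84 to 6.81% and 2.84 to 9.87% of the stromal sum in knockout and control LE at D3.5 and to 1.77 to 4.78% and 1.39 to 2.70% at D0.5, above its 0.386 to 1.25% in every library of U and DU. Macrophages also use Dab2; their 9 markers summed to 50.6 to 265 CPM in knockout and 58.4 to 217 CPM in control LE at D3.5 and to 122 to 156 CPM in knockout and 205 to 436 CPM in control LE at D0.5. The median of this sum at D3.5 was 0.763 times that at D0.5 in knockout LE and 0.497 times in control LE. Of the 8 markers tested, 3 were called higher and 1 lower at D3.5 in knockout LE, with a median log2 fold change of 0.38, and 4 higher and 1 lower in control LE, with a median of 2.09. The part of macrophages in Dab2 was not tested.

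**Figure D4:**
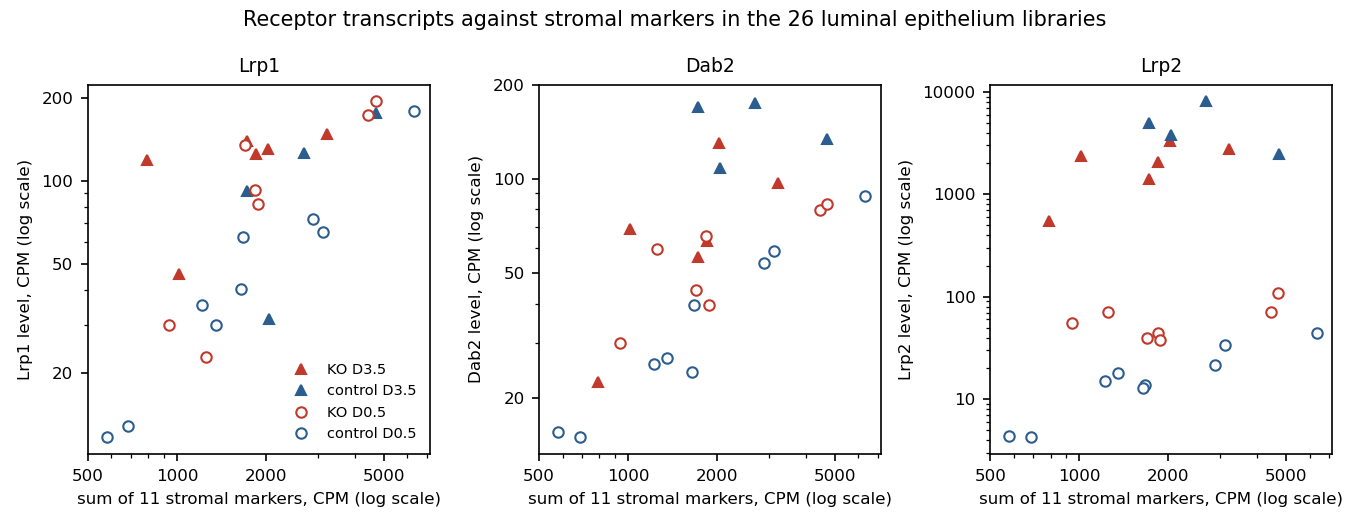
Lrp1, Dab2 and Lrp2 level in CPM against the sum of 11 stromal markers in CPM, both on log scales, for the 26 LE libraries, with knockout (KO) in red, control in blue, D3.5 as filled triangles and D0.5 as open circles. Lrp1 climbs with the stromal sum in D0.5 libraries, and Lrp2 does so in control LE at D0.5, while all D3.5 libraries (552 to 8080.2 CPM) lie above all D0.5 libraries (4.25 to 108 CPM) in Lrp2.

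Between tissues, with genotypes and days weighted equally, Lrp2 was higher in LE than in U by 2.48 ± 0.26 on the log2 scale (SE; edgeR adjusted p = 1.91e-11). Lrp1 was lower in LE, with a log2 difference of −2.84 ± 0.27 (SE; edgeR adjusted p = 2.35e-12), and so was Dab2, with −0.66 ± 0.18 (SE; edgeR adjusted p = 0.00139). This average hides the day for Dab2, whose mean was 69.0 TPM in control LE and 59.0 TPM in control U at D3.5, and 13.5 TPM in control LE and 53.2 TPM in control U at D0.5. Cubn at 0.33 ± 0.26 and Amn at −0.02 ± 0.43 did not pass (edgeR adjusted p = 0.271 and 0.980). Tissue and RNA isolation batch cannot be told apart here, and 65.8% of 16665 genes were called in this comparison. Digested and undigested tissue were compared by DU over U, where digestion and RNA isolation batch cannot be told apart either. There no gene of 16782 passed in edgeR, and 4055 had an unadjusted p under 0.05. The log2 differences of Lrp2, Cubn, Dab2 and Lrp1 were 0.17, −0.07, 0.05 and 0.38. In the 13 mice that gave both pieces, fitted with mouse as a block, Lrp1 was 0.61 higher in DU (log2, edgeR adjusted p = 0.00172), and limma voom gave 0.45 (adjusted p = 0.0110). The absence of called genes holds for the main fit only. The share of all genes called in these other fits is not given here, so Lrp1 is not singled out by them. Whether the knockout effect differs between LE and U was tested on each day: for Lrp2 the effect in LE minus that in U was −1.06 ± 0.69 at D3.5 (SE; edgeR adjusted p = 0.514) and −0.37 ± 0.64 at D0.5 (SE; edgeR adjusted p = 0.968). For Cubn at D3.5 it was −1.79 ± 0.74 (SE; edgeR adjusted p = 0.197). None of the 5 genes passed, where 3.86% of genes did at D3.5 and 1.63% at D0.5.

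Set against each other in TPM, Lrp2 and Lrp1 of control LE stood in opposite order on the days. In knockout LE Lrp2 stood at 4.53 to 49.6 times the Lrp1 level at D3.5 and at 0.394 to 3.84 times at D0.5. In control LE these ratios were 13.3 to 122 at D3.5 and 0.222 to 0.939 at D0.5. In control U, Lrp1 exceeded Lrp2 on both days, 1.19 to 5.66 times at D3.5 and 27.1 to 108 times at D0.5. Against its adaptor, Lrp2 had a median of 4.65 times the Dab2 level in knockout and 5.63 times in control LE at D3.5, and 0.252 times in knockout and 0.123 times in control LE at D0.5. Against its partner Cubn, Lrp2 was 389 to 2148 times as high in knockout and 237 to 905 times in control LE at D3.5.

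Across the 12 group means, on the scale log2(TPM + 0.1), Lrp2 and Cubn had a Pearson r of 0.834, Dab2 and Lrp1 of 0.736, and Lrp2 and Lrp1 of −0.201. These describe 12 points that share mice, tissues and days. Among genes with at least 5 TPM in some group, those closest to Lrp2 in pattern were Wdr77, a partner of an arginine methyltransferase, at r = 0.983, Gstm2, a glutathione transferase, at 0.979, and Kcnc4, a potassium channel, at 0.977. Closest to Cubn were Bfar at 0.988, Cpt2 of fatty acid import into mitochondria at 0.980 and Lactb2 at 0.963. Dab2 was closest to Hip1, which itself binds clathrin, at 0.963, then to Rb1 at 0.952 and C1qtnf1 at 0.950. Lrp1 was closest to the calcium channel gene Cacna1c at 0.997, the transcription factor Maf at 0.996 and Reck at 0.996. For Amn the highest r was 0.782, with Ccser1, followed by Marchf3 at 0.769 and Tmsb15b1 at 0.756. Group means of Amn (0.0445 to 0.269 TPM) lie near the added 0.1. So do those of Cubn outside control LE at D3.5 (0.0419 to 0.285 TPM), and the r values of both genes rest on these low levels.

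The genes around these receptors were described as 8 lists, beginning with the days in LE, where 41.6% of all genes were called in knockout LE and 44% in control LE. Receptor chaperones, adaptors and tail partners (15 genes, 14 tested) had 5 higher and 1 lower at D3.5 in knockout LE, with a median log2 fold change of 0.27, against 0.04 for all genes. In control LE they had 7 higher and 3 lower, with a median of 0.46, against 0.00 for all genes. Lrpap1, the chaperone that escorts megalin and Lrp1 through the endoplasmic reticulum, rose in knockout LE to 471 ± 182 CPM at D3.5, against 75.3 ± 14.9 CPM at D0.5 (SD; log2 fold change 2.64 ± 0.22, SE; edgeR adjusted p = 5.42e-10). In control LE it rose to 811 ± 272 CPM, against 99.4 ± 16.2 CPM at D0.5 (SD; log2 fold change 3.03 ± 0.22, SE; edgeR adjusted p = 1.66e-11). Dlg4, a scaffold that binds receptor tails, rose by 0.77 in knockouts and 1.74 in controls (log2), and Apbb1, another tail adaptor, rose by 2.17 in controls.

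Of the clathrin and vesicle genes (22, all tested), 4 were higher and 5 lower at D3.5 in knockout LE, and 3 higher and 5 lower in control LE. Of all genes, 41.6% were called in knockout LE and 44% in control LE, so these counts do not set the list apart. Hip1 rose in controls by 2.75 on the log2 scale (edgeR adjusted p = 2.87e-07; 144 CPM at D3.5 and 21.5 CPM at D0.5), while Picalm, which sets the size of clathrin coats, fell by 1.22 in knockouts and by 0.80 in controls. Of the genes of the apical endosome and of recycling (22, 21 tested), 5 were higher and 7 lower in knockout LE, and 3 higher and 5 lower in control LE. Clcn5, an endosomal chloride and proton exchanger whose loss in humans impairs uptake by the kidney tubule, rose by 1.88 in knockouts and 1.80 in controls. Rabep1, an effector of early endosome fusion, rose by 1.01 in knockouts and 1.66 in controls, and Rab11fip5, a recycling effector, fell by 2.39 in controls. In controls the median log2 fold change was −0.20 for the clathrin genes and −0.20 for the endosomal genes, and both lists held genes called in each direction.

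Within the LDL receptor family apart from megalin and Lrp1 (13 genes, 12 tested), 1 was higher and 4 lower at D3.5 in knockout LE, and 4 higher and 5 lower in control LE. The share of all genes called was 41.6% in knockout LE and 44% in control LE. Sorl1, a sorting receptor, rose in controls to 1890.4 ± 1020.1 CPM at D3.5, against 283 ± 108 CPM at D0.5 (SD; log2 fold change 2.74; edgeR adjusted p = 3.84e-08). Lrp5, a Wnt co-receptor, fell by 1.88 in knockouts and fell by 2.72 in controls, and Lrp4 fell by 3.87 in knockouts and fell by 3.56 in controls. Other endocytic receptors (18 genes, 16 tested) had 2 higher and 6 lower in controls. Among them Pigr, which carries immunoglobulins across epithelia, fell by 3.86 in knockouts and fell by 5.31 in controls, and Tfrc, the transferrin receptor, fell by 4.09 in knockouts and fell by 4.87 in controls. The medians were −0.45 for the family and 0.42 for the other receptors in controls.

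Ligands were listed for megalin or cubilin (27 genes, 18 tested) and for Lrp1 (20, all tested). Between the days 6 megalin or cubilin ligands were higher and 5 lower in control LE, and 5 Lrp1 ligands were higher and 8 lower, where 44% of all genes were called. Tcn2, the plasma carrier of vitamin B12, fell by 1.93 (log2; edgeR adjusted p = 6.57e-09), with 53.0 CPM at D3.5 and 202 CPM at D0.5. Ccn2, a matricellular protein that Lrp1 binds, rose by 3.76 in knockouts and 5.66 in controls. Genes of vitamin uptake (17, 16 tested) had 2 higher and 4 lower in controls; Cyp26a1, which breaks down retinoic acid, averaged 144 CPM at D3.5 and 1.37 CPM at D0.5. The medians of these 3 lists were 0.38, −0.11 and −0.38, against 0.00 for all genes.

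In knockout against control LE at D3.5, where 13.5% of all genes tested were called, the genes around the receptors passed as 0 higher and 2 lower among chaperones and adaptors, 0 and 2 among clathrin genes, 2 and 1 among endosomal genes and 1 and 2 in the LDL receptor family. The medians of these 4 lists were −0.02, −0.05, 0.02 and 0.40, against −0.01 for all genes. Sorl1 was lower, at 367 ± 121 CPM in knockouts and 1890.4 ± 1020.1 CPM in controls (SD, n = 6 and 4; log2 fold change −2.37 ± 0.34, SE; edgeR adjusted p = 2.67e-05). Hip1 was lower, at 38.7 CPM in knockouts and 144 CPM in controls, and so were Myo6, the actin motor of endocytic vesicles (149 and 312 CPM), and Apbb1 (19.2 and 64.5 CPM). Lrpap1 was lower at 471 ± 182 CPM in knockouts and 811 ± 272 CPM in controls (SD; log2 fold change −0.79; edgeR adjusted p = 0.0283), a call that ended when control mouse 11 or 16 or knockout mouse 35 or 36 was left out (adjusted p = 0.0604, 0.163, 0.0668 and 0.0591). Clcn5 was higher, at 219 CPM in knockouts and 118 CPM in controls (adjusted p = 0.0260), and lost its call without control mouse 11, 14 or 15 or knockout mouse 32 or 34 (adjusted p up to 0.0952). Lrp4 was higher in knockouts, 10.1 against 1.28 CPM. Ihh, listed because the related Shh binds megalin, was lower at 74.6 CPM in knockouts and 344 CPM in controls. Without knockout mice 35, 36 and 37, the calls of Hip1 (adjusted p = 0.0597), Myo6 (0.0732), Lrpap1 (0.301) and Lrp4 (0.0882) ended, and those of Sorl1 (log2 fold change −1.98, adjusted p = 0.00336), Apbb1 (−1.69, 0.0449) and Ihh (−2.0, 0.0143) did not.

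At D0.5, where 23.6% of all genes were called, the same lists gave 3 higher and 1 lower in the LDL receptor family, 0 and 1 among chaperones and adaptors, 1 and 2 among clathrin genes and 4 and 1 among endosomal genes in knockout LE. Their medians were 0.25, −0.03, −0.09 and −0.06, against −0.01 for all genes. Lrp4 was higher, as Lrp2 was, at 148 ± 69.5 CPM in knockouts and 14.5 ± 9.47 CPM in controls (SD, n = 7 and 9; log2 fold change 3.34 ± 0.45, SE; edgeR adjusted p = 5.2e-06). It was also higher in knockout U (1.92, edgeR adjusted p = 0.00316) and DU (2.35, edgeR adjusted p = 0.000857). Gipc1, which binds the tail of megalin, fell by 0.62 on the log2 scale in knockouts, Rab11fip5 fell by 2.12 and Myo6 fell by 0.64, and Ehd1, which acts in recycling, was higher by 1.24. Lrpap1 averaged 75.3 CPM in knockouts and 99.4 CPM in controls and was not among the called genes.

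Among ligands at D0.5, beside the same 23.6% of all genes, 3 for megalin or cubilin were higher and 3 lower in knockout LE, and 4 for Lrp1 were higher and 2 lower. Clu, an extracellular chaperone cleared by megalin, was higher at 2302 ± 609.8 CPM in knockouts and 316 ± 96.6 CPM in controls (SD; log2 fold change 2.87; edgeR adjusted p = 1.16e-07), and higher in knockout U and DU by 1.35 and 1.36. Tcn2 was lower at 100.5 CPM in knockouts and 202 CPM in controls (edgeR adjusted p = 1.44e-05). Mmp9, a gelatinase stored by neutrophils, stood at 164 CPM in knockouts and 6.75 CPM in controls, in libraries whose neutrophil marker sums differ as given above; the part of neutrophils in it was not tested. Of the vitamin genes 3 were higher and 3 lower, with Lrat, which esterifies retinol, at 0.444 ± 0.215 CPM in knockouts and 38.9 ± 71.6 CPM in controls (SD). The medians of the 3 lists were 0.02, 0.10 and −0.33, against −0.01 for all genes.

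Of the other 4 lists at D3.5 in LE, where 13.5% of all genes were called, megalin or cubilin ligands had 0 higher and 1 lower in knockouts, Lrp1 ligands 0 and 2, vitamin genes 1 and 3, and other endocytic receptors 1 and 0. Their medians were −0.09, −0.25, 0.02 and −0.15. Cyp26a1 was lower at 11.0 CPM in knockouts and 144 CPM in controls (log2 fold change −3.71; edgeR adjusted p = 0.00729), a call that ended without knockout mice 35, 36 and 37 (adjusted p = 0.110). In DU at D3.5 Sorl1 was lower by a log2 fold change of −1.37 (edgeR adjusted p = 0.00708) and Atp6v0a4, a subunit of the pump that acidifies endosomes, by −2.51 (edgeR adjusted p = 0.0281), and no other gene of the 8 lists passed there. Counting a gene once for each list it is in, the 8 lists gave at D0.5 4 higher and 6 lower of 142 tested genes in knockout U (all genes 4.98%), and 9 higher and 5 lower of 140 in knockout DU (all genes 8.06%). The knockout effect of D3.5 minus that of D0.5 in LE passed for 10 genes above 0 and 12 below 0 of 139 tested, where 16.5% of all genes did. Sorl1 at −2.65 (log2; edgeR adjusted p = 0.000106) and Hip1 at −2.31 (edgeR adjusted p = 0.00156) were below 0, as Lrp2 was.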

How the data were processed

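RNA sequencing had been done on 26 LE, 20 U and 13 DU samples of mouse uterus. Per the submitters' processing notes, kallisto 0.46.1 and mouse build GRCm39 were used. The authors deposited estimated counts per gene, not normalized, and TPM per gene, which correct for transcript length and library size. Both were measured for 21706 genes, and every column was mapped to a sample, so that 0 per-sample columns were left unused. The samples were grouped by tissue, day and genotype as labelled, and no label names separate litters. Within a tissue, p-values therefore measure the spread between mice. The main fits between tissues treat pieces of the same mouse as independent, which the fit with the mouse as a block does not.

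Estimated counts were rounded and tested in edgeR 4.0.16 (R 4.3.3) with TMM scaling, filterByExpr (minimum count 10, minimum total 15), the quasi-likelihood test and Benjamini-Hochberg adjustment over all genes tested, 15601 in LE, 16232 in U and 16194 in DU. Each tissue was fitted with its 4 groups, and LE with U and DU with U were fitted together for comparisons between tissues. RNA had been isolated as 1 batch per tissue, so comparisons between genotypes and days lie within a batch, and those between tissues cannot be told apart from it. The fits were checked on simulated counts. Libraries of a group were compared pairwise for duplicates (134 pairs), and the closest pair still differed beyond sampling noise, at a chi-square of 9.38 for each degree of freedom.

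Alternatives were DESeq2 1.42.0, no count filter, limma 3.58.1 on log2(TPM + 1), with and without a filter at a mean of 1 TPM, and on log2(TPM + 0.1), limma voom with sample weights, fits of only the groups compared, the mouse as a block, and each library left out in turn. Those of the pathway genes were chosen after seeing the data. The same number marks pieces of the same mouse, which pairs the tissues. Deviations from group means had a median correlation of 0.428 over 13 mice with DU and U and of 0.353 over 17 mice with LE and U.

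The 5 genes, the 8 lists of pathway genes and the marker sets of general and stratified epithelium, gland, stroma, mesothelium, endothelium, lymphatic endothelium, erythroid cells, macrophages, neutrophils, B and plasma cells and blastocyst were chosen with earlier results of these data known. Named are the 5 genes, up to 3 called genes of a list in each comparison described, by smallest adjusted p, and the 3 genes most like each of the 5. Of the genes this rule names, 1 is not reported here. Counts of 0 carry an upper limit of 3 counts. Intervals and limits cover counting error only. Reads without molecular identifiers are not independent molecules. Promoters were searched with Python 3.11.15, and figures drawn with matplotlib 3.10.9. Promoter windows and loci are on GRCm38.p6, another build than that of the counts, and were used only to show sequence and position.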

Additional observations from a re-analysis of the deposited data

Results flagged for a closer look

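Each gene was looked at in each group of 4 to 10 libraries, which made 45 sets. In 4 of these 45 sets an end library lay far from the others by Dixon's criterion. For normally distributed values chance alone meets it in about 1 of 20 sets. Amn in control LE at D3.5 was highest in mouse 11, with 0.349 CPM, where the other 3 libraries had none, so that any reads in mouse 11 would have met the criterion. Lrp1 in knockout LE at D3.5 was lowest in mouse 34, with 46.0 CPM, where the other 5 had 118 to 147 CPM. Lrp1 in control LE at D0.5 was highest in mouse 2, with 178 CPM, where the other 8 had 11.7 to 72.4 CPM. Dab2 in control U at D3.5 was lowest in mouse 14, with 107 CPM, where the other 4 had 144 to 158 CPM.

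The knockout effect differed between the days by an interaction test for Lrp2 in LE, at a log2 difference of −2.94 (D3.5 minus D0.5; edgeR adjusted p = 0.00236), for Lrp2 in DU, at −3.20 (edgeR adjusted p = 0.00575), and for Dab2 in LE, at −1.58 (edgeR adjusted p = 0.0473).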

How the results depend on the processing

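No result turned its direction past a threshold under any alternative run. The shares of all genes given above belong to the main fits, and those of the alternative fits are not given here. In the counts of members called (Lrp2, Cubn, Amn, Dab2, Lrp1), knockout against control in LE at D3.5 was 0 in place of 1 in limma on log2(TPM + 1) and log2(TPM + 0.1), whose filter removed Cubn, and without knockout mice 35, 36 and 37. In U at D0.5 it was 0 in all 3 TPM fits, where Lrp2 had log2 differences of 0.88 to 1.33 and adjusted p of 0.157 to 0.381. In DU at D3.5 it was 1 in voom, Lrp2 at −0.80 (adjusted p = 0.0478). Between the days it was 1 in place of 2 in knockout LE in the 3 TPM fits, and 2 in place of 1 in control DU, with Cubn, on log2(TPM + 1) without a filter, in voom and with only the groups compared. For the change of the knockout effect between days, LE gave 1 in place of 2 without the count filter, on log2(TPM + 1), on log2(TPM + 0.1) and without mice 35, 36 and 37 (Dab2 adjusted p = 0.0539 to 0.227). There U gave 1 in place of 0 in DESeq2 and voom (Lrp2 −2.21 and −2.50), and DU gave 0 in place of 1 on log2(TPM + 0.1) and on log2(TPM + 1) without a filter (Lrp2 adjusted p = 0.0647 and 0.0533). The knockout effect in LE minus that in U at D3.5 gave 1 in place of 0 in voom, Cubn at −1.90 (adjusted p = 0.0313). The causes were not tested. With each library left out in turn, the counts ranged from 1 to 2 for LE at D0.5, 0 to 1 for LE at D3.5, 1 to 2 for the change between days in LE and 0 to 1 for that in U. The TPM fits moved the median of all genes by 0.38 on log2(TPM + 1) and 0.42 on log2(TPM + 0.1) in knockout against control LE at D3.5.

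With the mouse as a block, DU over U gave 1 member in place of 0, Lrp1 at 0.61 (adjusted p = 0.00172), which voom gave as well. The block changed no other call of a member between tissues: 3 members passed in LE over U, with Lrp2 at 2.46, Dab2 at −0.76 and Lrp1 at −3.11, and 0 passed for the difference of the knockout effect on either day. Groups of different genotype or day hold different mice, so no paired fit applies to them. Depth limits Amn everywhere and Cubn outside LE at D3.5, where most libraries hold few counts of them.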
